A study of Homo sapiens with 32 samples.

Results

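The chromatin loops of wild-type HEK293 cells were compared between untreated cells and cells given sorbitol. The members were all loops in the control list (15180) and the sorbitol list (5906) of the wild-type line, 21086 of the 45629 loops in the 4 lists of the series used here. A control loop and a sorbitol loop were called the same when they lay on the same chromosome with both anchors within 10 kb of each other. Loops of the control list without such a partner are called lost, loops of the sorbitol list without a partner gained, and the others shared.

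The study asked how hyperosmotic stress alters chromatin folding, using in situ Hi-C with MboI, which cuts at GATC. HEK293 is an established human embryonic kidney cell line. Both groups carried the wild-type genotype. The control group was untreated, and the other group was exposed to sorbitol at 200 mM for 1 h. Sorbitol is a sugar alcohol; outside cells it draws water out of them. Each group had 3 replicate libraries in the labels, but the deposited files hold 1 pooled loop list per group, so no spread between replicates could be measured and no test was possible. The time-course libraries were not used as replicates. The labels name the line HEK293, while their culture text names HEK293T, its derivative with the SV40 large T antigen. A 1 h serum starvation is stated for the eGFP-YAP cells, and whether it also applied to the wild-type cells was not given in the sources used here. No expression values were used to check the cell type.

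In Hi-C, a loop is a pair of distant DNA segments, its anchors, that meet more often than their surroundings. Many loops in unstressed cells form when the cohesin ring extrudes DNA until it meets CTCF, a zinc finger protein bound to its motif, and such loops often share an anchor or lie inside each other. Other contacts join promoters, enhancers or large active or silent compartments without a CTCF boundary. Sorbitol shrinks cells and crowds the nucleus, and the response to it includes the kinase p38 and the transcription factor NFAT5.

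To show what lay in the anchors, 6 matches to the CTCF core (CCAC, any base, AGG, any base, GGC) are printed first, chosen from named loops and from the sites with most loops. Capitals mark the 12-letter core, the coordinates give the core in hg38, and 5 bases of flank stand on each side in lower case. The ZFTA match lay in a lost loop, the AP3S1 and NR6A1 matches in shared loops, and the unnamed chromosome 2 and RAD51B matches in the control sites with most loops. The FOXC1 match lay in the sorbitol site with the second largest number of loops.
ZFTA (chr11:63768352-63768363, plus strand): cgcgcCCACCAGGTGGCgcccc
AP3S1 (chr5:115842249-115842260, minus strand): cacacCCACCAGGAGGCtgaca
NR6A1 (chr9:124772194-124772205, plus strand): tgcggCCACCAGGTGGCgcgcg
chromosome 2 site (chr2:42819679-42819690, plus strand): gatgaCCACAAGGAGGCaaact
RAD51B (chr14:67934169-67934180, plus strand): tgtaaCCACTAGGTGGCatctt
FOXC1 (chr6:1595285-1595296, minus strand): ggttcCCACGAGGGGGCatgat

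Both strands were searched, and 0.974% of all sequenced 5 kb bins of the genome held this core. It lay in 3.44% of the 24820 lost-loop anchors (95% interval 3.23 to 3.68%), in 2.50% of the 8594 gained-loop anchors (2.19 to 2.85%) and in 8.03% of the 2292 shared-loop anchors (6.98 to 9.21%). Shared anchors thus held the core more often than either other class, beyond counting error. A match is a description of the letters and shows no binding. All intervals here cover counting error over loops, sites or anchors only, and neighbouring anchors are not independent.

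The promoters of 4 genes are shown because these genes started in anchors with many gained loops (CBX3, JOSD1) or many lost loops (NRP2, EFNB1). They are RefSeq promoters on GRCh38.p14, from 250 bases before to 50 after the start. Capitals mark GC boxes, GGGCGG on either strand, a motif bound by Sp1-type factors. CBX3 encodes the heterochromatin protein HP1 gamma, JOSD1 a deubiquitinase, NRP2 a receptor for semaphorins and vascular growth factors, and EFNB1 the ligand ephrin-B1.
CBX3 (chr7:26201193-26201492, plus strand): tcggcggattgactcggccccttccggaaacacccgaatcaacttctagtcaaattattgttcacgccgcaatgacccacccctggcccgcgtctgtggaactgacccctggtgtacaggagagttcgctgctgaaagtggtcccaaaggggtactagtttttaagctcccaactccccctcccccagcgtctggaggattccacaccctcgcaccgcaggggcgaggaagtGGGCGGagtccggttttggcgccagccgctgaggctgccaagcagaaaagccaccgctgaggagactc
JOSD1 (chr22:38701354-38701653, minus strand): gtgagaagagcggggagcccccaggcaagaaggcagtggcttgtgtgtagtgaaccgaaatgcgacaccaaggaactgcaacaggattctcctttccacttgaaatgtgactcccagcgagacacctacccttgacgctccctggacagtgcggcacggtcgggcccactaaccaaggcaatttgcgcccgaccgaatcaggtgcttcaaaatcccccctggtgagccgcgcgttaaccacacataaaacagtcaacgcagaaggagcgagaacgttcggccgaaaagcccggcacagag
NRP2 (chr2:205682251-205682550, plus strand): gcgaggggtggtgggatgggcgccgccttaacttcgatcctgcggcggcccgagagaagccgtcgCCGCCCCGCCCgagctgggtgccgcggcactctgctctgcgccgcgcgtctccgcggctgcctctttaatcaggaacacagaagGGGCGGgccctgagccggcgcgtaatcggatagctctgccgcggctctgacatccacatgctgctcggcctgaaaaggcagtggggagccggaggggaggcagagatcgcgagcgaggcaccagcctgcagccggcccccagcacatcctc
EFNB1 (chrX:68828771-68829070, plus strand): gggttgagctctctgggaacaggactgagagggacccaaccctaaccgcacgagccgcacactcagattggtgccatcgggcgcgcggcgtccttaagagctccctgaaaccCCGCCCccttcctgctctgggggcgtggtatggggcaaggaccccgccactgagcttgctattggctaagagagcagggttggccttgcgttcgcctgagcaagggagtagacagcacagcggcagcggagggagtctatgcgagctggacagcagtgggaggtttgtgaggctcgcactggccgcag

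These 4 examples held 1, 0, 3 and 1 GC boxes in that order, so they do not show the direction of the classes. Over all genes, using the same window at the GENCODE 44 start in hg38, the GC box lay in 71.0% of 2001 promoters of genes that started only in gained anchors (69.0 to 73.0%). Among 1230 genes that started only in lost anchors the share was 54.6% (51.8 to 57.3%), and over all 19969 promoters it was 52.4%. The letters TATAAA, the TATA box, went the other way, with 5.20% of gained-only promoters, 10.9% of lost-only promoters and 10.8% of all promoters. Median GC content was 65.0%, 61.2% and 60.3% in the same order. The CCAAT box (CCAAT) lay in 36.5%, 34.5% and 35.9%. The TEAD core GGAATG lay in 11.7%, 11% and 12.8%, and the NFAT core TGGAAA in 15.0%, 17.7% and 18.8%. All 5 motifs were searched on both strands, and short motifs depend on base composition.

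The sorbitol list held 0.389 times as many loops as the control list (0.377 to 0.401). Lost loops made up 92.2% of the control list (13994 loops) and gained loops 79.9% of the sorbitol list (4720 loops), and 1186 loops of each list were shared. A loss did not always mean that its anchors had no sorbitol loop. Of the lost loops, 61.2% had no anchor within 10 kb of a sorbitol anchor, 33.0% had 1 such anchor, and 5.80% had both anchors near sorbitol anchors that were paired differently. Among gained loops, 50.2% used 1 anchor near a control anchor and 20.3% used 2, leaving 29.4% with neither. The classes depend on list length: with the control list shortened to the 5906 highest scores, both the lost and the gained share were 86.7%. The contacts sequenced behind each list were not given in the sources used here, so the part of sequencing depth in the number of loops cannot be told apart from that of treatment.

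Because lists of unequal length cannot be compared directly for nesting or for loops per anchor, each measure is given for 4 sets: the whole control list, its 5906 loops with the highest deposited score (the score-matched control), 5906 control loops taken evenly along the score order (the evenly thinned control), and the sorbitol list. The score-matched control was cut by score to the length of the sorbitol list. Its scores were not matched to those of the sorbitol list, which kept its weaker loops. Anchors of a list were joined into a site when they lay within 10 kb of the next anchor.

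Loops per site were fewer with sorbitol than in the whole control list and more than in either shortened control list. The control loops used 19923 sites with a mean of 1.52 loops (1.51 to 1.54), and the sorbitol loops 8560 sites with a mean of 1.38 (1.36 to 1.40). The score-matched control had a mean of 1.30 (1.28 to 1.31) and the evenly thinned control 1.20 (1.19 to 1.21). Sites with 2 or more loops made up 29.4% of control sites, 24.7% of sorbitol sites, 21.3% of score-matched and 15.4% of evenly thinned control sites. Sites with 3 or more loops made up 12.3%, 8.34%, 5.78% and 3.71% in the same order. The order between control and sorbitol therefore turned with list length.

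Sites differed more in the side from which their loops came. Among sites with 2 or more loops, 37.4% of the 2116 sorbitol sites had loops leaving to both sides (35.4 to 39.5%), against 24.7% of the 5866 control sites (23.6 to 25.8%). The score-matched control gave 20.1% (18.3 to 21.9%) and the evenly thinned control 17.9% (16 to 19.9%). With sites taken as identical 5 kb bins, the shares were 35.4% with sorbitol and 12.2% in control, and with joining at 25 kb they were 40.9% and 36.6%.

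**Figure D1:**
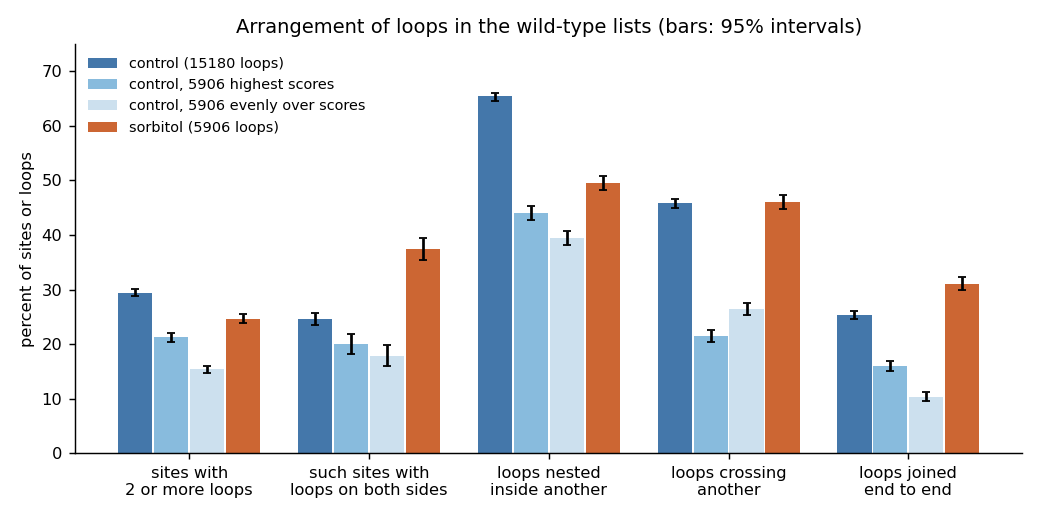
Percent of anchor sites (left 2 groups) or of loops (right 3 groups) in each arrangement, for the whole control list, the 2 control lists cut to the sorbitol length and the sorbitol list; error bars are 95% Wilson intervals. Sorbitol bars stand above both equal-length control bars in every arrangement, and above the whole control list for sites with loops on both sides (37.4% against 24.7%) and loops joined end to end (31.1% against 25.3%).

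The control sites with most loops reached mainly to a single side. Here and below, genes and gene starts are those of protein-coding genes unless all types are named. The largest site, on chr2:42815001-42865000, held no gene. All 14 of its loops reached right, over 80.0 to 750 kb, and 1 of them was shared. A site inside RAD51B, a gene of recombination repair, on chr14:67925001-67955000 sent 12 of 13 loops right. The site at the start of PCDH9, which encodes a protocadherin adhesion protein, on chr13:67205001-67240000 sent all 13 loops left, and 4 of these were shared. A site inside MTFR2, a mitochondrial fission regulator, on chr6:136200001-136235000 sent all 12 left, and a site without a gene on chr10:120940001-120970000 sent all 12 right. In the sorbitol list 4, 3, 9, 1 and 6 loops, shared or gained, ended within 10 kb of these 5 sites.

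The sorbitol site with most loops spanned the HOXA cluster on chr7:27125001-27200000, with the starts of HOXA3 to HOXA7, HOXA9, HOXA10 and HOXA11, homeobox genes of body patterning. It held 14 loops, 11 to the left, 2 to the right and 1 within the site; 5 of them were shared, and 9 control loops ended within 10 kb of it. The FOXC1 site (a forkhead factor) on chr6:1585001-1620000 held 12 loops, 6 of them shared, against 10 control loops. PCDH9 was again among the leading sites, with 9 sorbitol loops against 13 in control. A site at ANHX, a homeobox gene at the end of chromosome 12, held 8 loops, all gained, against 2 control loops, and a site on chr10:132440001-132465000 without a gene held 8 against 4.

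Control sites with many loops were the ones near which sorbitol anchors were found most often. A sorbitol anchor lay within 10 kb of 16.7% of control sites with 1 loop (16.1 to 17.3%), 32.9% with 2, 42.3% with 3, 55.0% with 4 and 59.0% with 5 or more (54.7 to 63.1%). A shared loop ended at 6.22% of sites with 1 loop and at 37.8% of those with 5 or more. Mean site width went from 5.00 kb to 23.1 kb over the same classes, and the part of width in these shares was not tested. A site with more loops also has more chances to hold a shared loop. The rise in sites with a shared loop is thus partly given by construction, and it does not show that single loops there were kept more often.

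Gene starts distinguished the sorbitol sites further. A protein-coding gene start lay in 16.4% of sorbitol sites with 1 loop (15.5 to 17.4%), 41.6% with 2 loops (39.0 to 44.2%) and 56.7% with 3 or more (53.1 to 60.3%). Control sites gave 5.76%, 10.4% and 15.8%, and the score-matched control 5.33%, 9.35% and 15.2%. Site widths were alike for 2 loops, 9.68 kb in control and 9.63 kb with sorbitol. From 1 loop to 3 or more, mean width went from 5.00 kb to 14.9 kb with sorbitol and to 16.3 kb in control. Wider sites can hold more starts, and the part of width in the rise within a list was not tested. At sites with loops on both sides the share was 59.3% with sorbitol (55.9 to 62.7%) and 15.3% in control (13.5 to 17.2%), at mean widths of 11.7 and 14.1 kb.

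**Figure D2:**
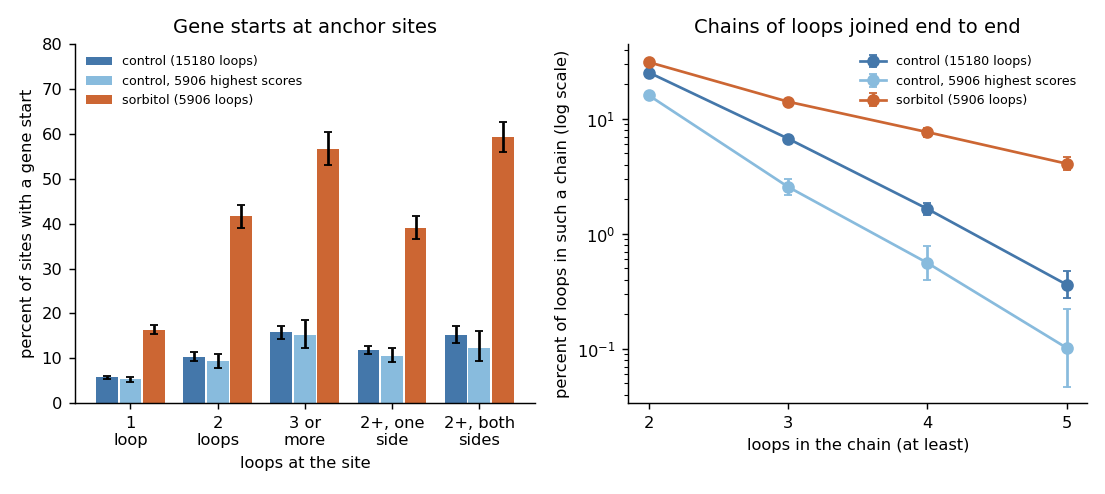
Left, percent of anchor sites that hold a protein-coding gene start, by the number of loops at the site and by whether its loops leave to a single side or to both; right, percent of loops in end-to-end chains of at least 2 to 5 loops, on a log axis. Error bars are 95% Wilson intervals; sorbitol sites with 3 or more loops reach 56.7% against 15.8% in control, and chains of at least 5 loops hold 4.08% of sorbitol loops against 0.362% of control loops.

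A loop was called nested when it lay inside a longer loop of its list, sharing at most 1 end. Nesting was most common in the whole control list, at 65.4% (64.6 to 66.1%), against 49.6% with sorbitol (48.3 to 50.9%). At equal length it was lower in control over the whole genome, 44% in the score-matched set (42.8 to 45.3%) and 39.5% in the evenly thinned set (38.2 to 40.7%). In gene-poor 1 Mb windows the score-matched share was not lower, but that set held more loops there, as given below. Nesting with a shared end, the form seen when several loops leave a single anchor, made up 36.9% of sorbitol loops (35.7 to 38.2%), 54.2% in the whole control list, 36.8% in the score-matched control (35.6 to 38.1%) and 28.4% in the evenly thinned control (27.2 to 29.5%). Nesting with both ends inside made up 26.9% of sorbitol loops (25.8 to 28.1%), 32.2% in the whole control list, 14.6% in the score-matched control (13.7 to 15.5%) and 17.5% in the evenly thinned control (16.5 to 18.4%). The deepest stack was 6 loops in each whole list.

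Crossing loops overlap in part, so that each holds a single anchor of the other. They made up 46.0% of sorbitol loops (44.7 to 47.3%) and 45.8% of control loops (45.0 to 46.6%), although the sorbitol list was the shorter. The score-matched control had 21.5% (20.5 to 22.6%) and the evenly thinned control 26.4% (25.3 to 27.6%). Within the sorbitol list, 49% of gained loops crossed another loop against 34.2% of shared loops (31.6 to 37.0%). In the control list, 46.7% of lost and 34.7% of shared loops did, so shared loops crossed less often than the other class in both lists.

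Loops joined end to end, where the right site of a loop is the left site of the next, made up 31.1% of sorbitol loops (29.9 to 32.3%) and 25.3% of control loops (24.6 to 26.0%). At equal length the control shares were 16% and 10.4%. With identical bins in place of 10 kb joining the shares were 12.8% with sorbitol and 5.48% in control. With 25 kb joining the order turned, to 43.1% against 46.7%, while the score-matched control stayed lower at 32.3%. Gained loops were joined end to end in 33.3% of cases (32.0 to 34.7%) and shared loops of the sorbitol list in 22.2% (19.9 to 24.6%). In the control list the order was the opposite, with 32.1% of shared loops (29.5 to 34.8%) and 24.7% of lost loops (24.0 to 25.4%).

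With 10 kb joining, long chains stood out in the sorbitol list. Chains of at least 3 loops held 14.1% of sorbitol loops (13.2 to 15.0%), 6.73% of control loops (6.34 to 7.14%) and 2.56% of the score-matched control. Chains of at least 5 loops held 241 sorbitol loops, 4.08%, against 55 control loops, 0.362%. The longest chain had 10 loops with sorbitol, 6 in the whole control list, 5 in the score-matched and 3 in the evenly thinned control. These lengths depended on the joining distance. With identical bins the longest chain had 5 loops with sorbitol, 4 in control and 3 in the score-matched control. With 25 kb joining it had 12, 11 and 6 in the same order. Groups of loops linked through any common site reached 38 loops with sorbitol and 30 in control. Of neighbouring pairs in a chain, 19.5% were spanned by an outer loop in the sorbitol list (17.6 to 21.6%) and 24.5% in control (23.1 to 26.1%). The score-matched control gave 24.0% (20.9 to 27.4%) and the evenly thinned control 8.73% (6.28 to 12.0%), so the order turned with the way the control list was cut.

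The 10-loop sorbitol chain ran over 2675 kb of chr6:31545001-34225000, through the class III part of the major histocompatibility complex and beyond. All 10 loops were gained. Its first 8 sites, in order, held the starts of DDX39B and NFKBIL1, then C6orf47, ZBTB12, NELFE with its neighbours, ATF6B, PBX2, RXRB with RING1, and DAXX. DDX39B is an RNA helicase of mRNA export, NELFE a subunit of the complex that pauses RNA polymerase II, ATF6B a stress-response transcription factor, RING1 a Polycomb protein and DAXX a histone chaperone. The 2 last sites lay within ITPR3, a calcium channel gene, and outside genes. Single loops of the chain spanned 40.0 to 1020 kb, with score percentiles in the sorbitol list from 20.9 to 96.1. Neighbouring loops of the chain met in a joined site, not always in the same bin. The region held 115 protein-coding gene starts, with 30 control loops inside it, 25 of them lost, and 34 sorbitol loops, 29 of them gained.

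A 9-loop sorbitol chain ran over 2740 kb of chr17:5420001-8165000, again with gained loops only. Its sites included the starts of NUP88 (a nuclear pore protein), MED31 (a Mediator subunit), RNASEK, PHF23 with GABARAP, FXR2 and VAMP2, and a site within KDM6B, a histone demethylase gene. Score percentiles ran from 2.11 to 95.2, so some of its links were among the weakest calls of the list. The region held 100 gene starts, 21 control loops and 29 sorbitol loops, and 3 loops were shared.

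The longest control chain had 6 loops over 2205 kb of chr1:67530001-69740000, all lost. It passed the start of GADD45A, a growth-arrest and DNA damage gene, then GNG12, WLS, which encodes a Wnt secretion factor, the start of RPE65 and LRRC7. This region had 7 gene starts, 14 control loops and 4 sorbitol loops. A 5-loop control chain on chr7:25890001-27135000 passed SNX10 and SKAP2 and ended at HOXA4; its first and last loops were shared and its 3 middle loops lost. Of these 4 named chains the sorbitol chains thus crossed regions with 115 and 100 gene starts and the control chains regions with 7 and 8.

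**Figure D3:**
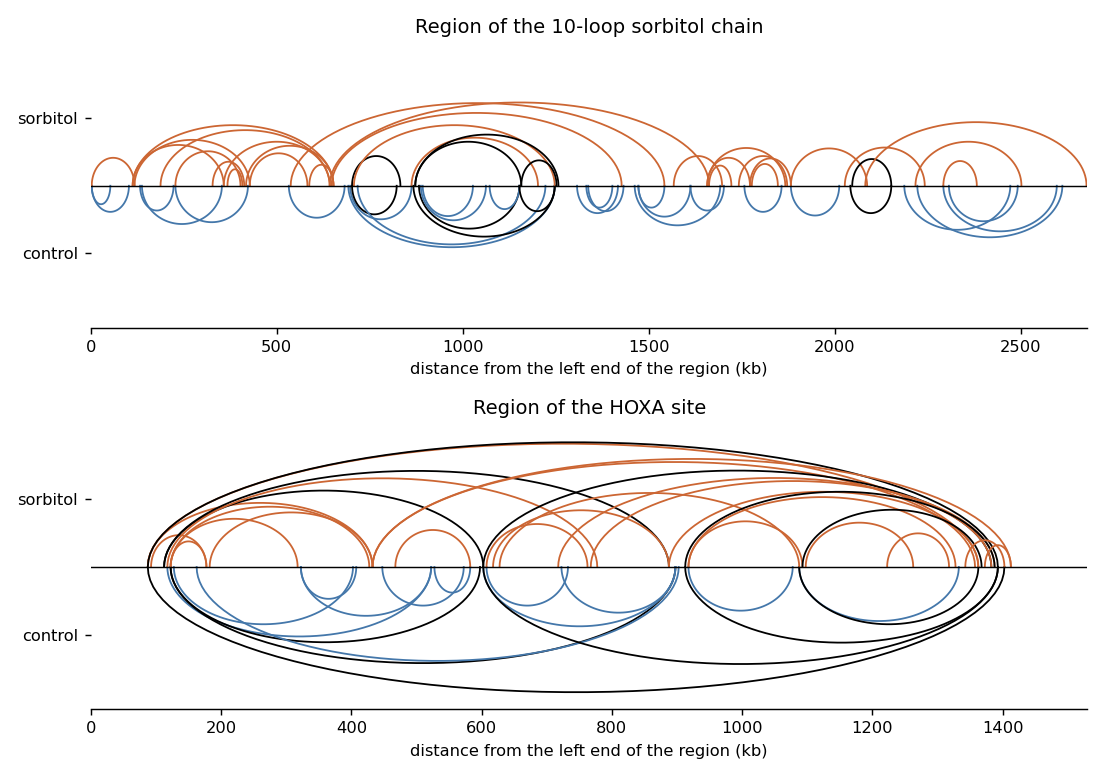
Loops drawn as arcs by distance in kb from the left end of the region, sorbitol above and control below the line, with arc height rising with the square root of span; black arcs are shared loops, coloured arcs gained (orange) or lost (blue). Upper panel, the region of the 10-loop chain, with 29 gained, 25 lost and 5 shared loops; lower panel, the region left of and around the HOXA site, with 23 gained and 12 lost loops and 6 shared loops.

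The lower arcs show the loops of the HOXA region. In the span chr7:25770001-27300000 the control list had 18 loops, 12 lost and 6 shared, and the sorbitol list 29 loops, 23 gained and 6 shared. Shared loops joined the cluster to the same distal segments in both lists, over about 275 to 1315 kb, and held high scores (percentiles 96.2 to 99.5). Gained loops tied it to the anchor on chr7:26200001-26205000 that holds the divergent starts of HNRNPA2B1 and CBX3. These loops ended within HOXA3 and HOXA4 (925 kb, percentile 98.7) and at HOXA10 (980 kb, percentile 99.7). No control loop ended in that anchor.

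Gene density moved with the arrangement of loops in the sorbitol list. By the number of gene starts in the 1 Mb window of a loop's midpoint, 19.1% of sorbitol loops were joined end to end in windows with 0 to 4 starts, 26.3% with 5 to 9, 33.1% with 10 to 19 and 44.3% with 20 or more (41.8 to 46.9%). The control list stayed within a narrower range, at 23.9%, 26.7%, 25.7% and 24.9%. Crossing went from 41.0% to 56.0% over these classes with sorbitol and from 53.1% down to 36.0% in control. In windows with 0 to 4 starts the whole control list therefore had the larger end-to-end share, and the score-matched control (14.9%) the smaller. Nesting in these windows was 48.0% with sorbitol, 48.3% in the score-matched, 43.9% in the evenly thinned and 69.0% in the whole control. With 20 or more starts it was 54.6%, 33.1%, 28.8% and 53.8% in the same order. Within a class the sets were not of equal length. Loops numbered 1224, 2282, 2161 and 5442 with 0 to 4 starts, in the same order. With 20 or more starts they numbered 1448, 528, 674 and 1668. The differences in nesting between the sets thus varied together with the number of loops, whose part was not tested.

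Loops were also placed differently along the chromosomes. Of 2941 windows of 1 Mb with sequenced bases, 2368 (80.5%) held a control loop and 1586 (53.9%) a sorbitol loop, against 2073 for the score-matched and 2024 for the evenly thinned control. Windows that together hold 50% of loops numbered 325 for sorbitol, 640 for control, 544 for the score-matched and 537 for the evenly thinned control. The sorbitol loops were thus more concentrated than control lists of their length. There were 817 windows with control loops only, 35 with sorbitol loops only, and 200 with more sorbitol than control loops.

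Relative sorbitol density is the share of sorbitol loops in a window over the share of control loops, given for the 940 windows with at least 10 loops in both lists together. A window with few control loops passed that minimum only through its sorbitol loops, and a window with few sorbitol loops only through its control loops. A relative density of 2 or more was found in 203 windows, 21.6% of those examined, and 0.5 or less in 190 windows, 20.2%. This near balance depended on the settings: the shares were 45.3% and 9.69% with the score-matched control, 42.8% and 7.38% with the evenly thinned control, and 45.4% and 1.97% among windows with at least 20 loops. The denser windows had a median of 16 gene starts, 47.2% GC and 2.75 GATC sites per kb, and the sparser windows 4.00 gene starts, 40.0% GC and 2.47 GATC sites per kb. Base composition and cutting sites thus moved with gene density, and their parts were not tested.

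Per gene class, windows without a gene start held 559 control and 150 sorbitol loops, a ratio of 0.268 (0.223 to 0.322). Windows with 1 to 4 starts gave 0.220 (0.206 to 0.235), 5 to 9 gave 0.337 (0.319 to 0.357) and 10 to 19 gave 0.496 (0.467 to 0.527). Windows with 20 or more starts held 1668 control and 1448 sorbitol loops, a ratio of 0.868 (0.809 to 0.932). Of the 153 windows examined in this last class, 88 were denser and 2 sparser. In the class with 1 to 4 starts, 12 of 231 were denser and 97 sparser. These counts cover only windows above the minimum of loops in both lists together. They are partly set by that minimum and are no separate evidence of a difference. The ratios per gene class used all windows, without a minimum. Over the 940 windows above that minimum, relative density and gene starts had a Spearman rho of 0.510, as a description. Windows share both lists and neighbouring windows share domains.

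**Figure D4:**
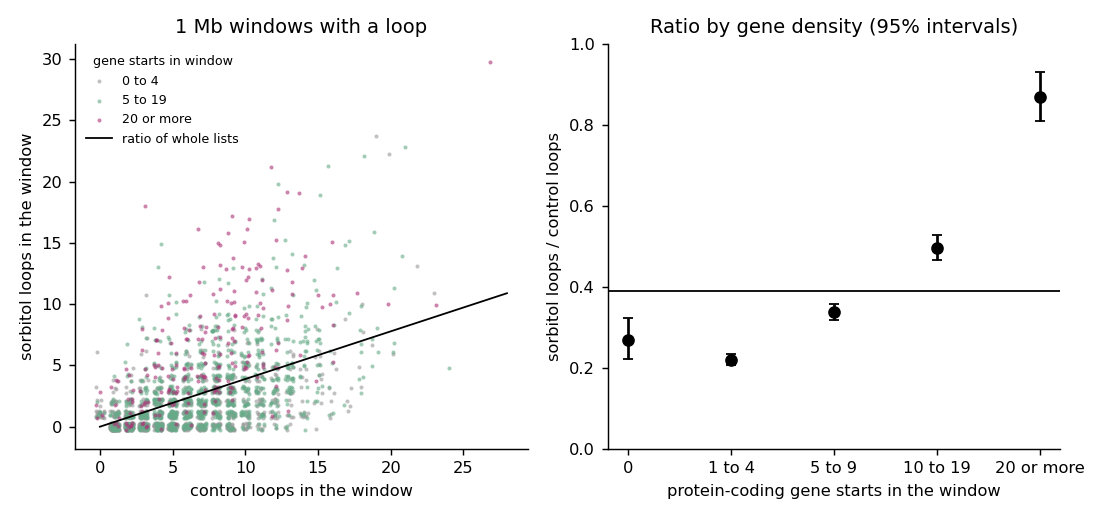
Left, control and sorbitol loops in each 1 Mb window with a loop, coloured by gene starts and shifted by a small random offset so that points do not overlap; the line is the ratio of the whole lists. Right, sorbitol loops over control loops by gene starts in the window, with exact 95% intervals, from 0.220 in windows with 1 to 4 starts to 0.868 in windows with 20 or more.

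At chromosome ends the sorbitol list was not the shorter. End windows were the first 2 and last 2 windows with sequenced bases on each chromosome, 92 in all. Where the reference lacks sequence at an end, such windows lie inward of that end. They held 481 control and 490 sorbitol loops, a ratio of 1.02 (0.896 to 1.16), against 0.368 (0.357 to 0.380) elsewhere. Of 42 end windows examined, 29 were denser and 0 sparser. Windows were examined only above the minimum of loops in both lists together. End windows with few control loops reached it only through their sorbitol loops. The counts of denser and sparser end windows are thus partly set by that minimum and are no separate evidence of a difference. The ratio of 1.02 used all 92 end windows, without a minimum. End windows had a median of 7 gene starts and 46.5% GC, the others 4.00 and 40.0%. This split was made after the leading windows were seen.

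The window with the highest relative density, chr16:89000001-90000000, held 3 control and 18 sorbitol loops, none shared. Among its 23 genes were ANKRD11, a chromatin regulator, FANCA of DNA crosslink repair, and RPL13, a ribosomal protein gene. The end of the long arm of chromosome 12, chr12:133000001-133275309, held 4 against 15 loops over ZNF84, ZNF140, ZNF10, ZNF268 and ANHX. A window without a gene start, chr15:95000001-96000000, held 3 against 11. The first window of chromosome 4, with GAK and IDUA, held 4 against 13, and the window of NFATC1 on chr18:79000001-80000000 held 3 against 9. All 5 of these windows had fewer than 10 control loops and reached the minimum only through their sorbitol loops.

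The 5 sparsest windows named here held 3 to 7 gene starts each. The window of OPA1, a mitochondrial fusion gene, on chr3:193000001-194000000 held 15 control loops and 0 sorbitol loops. MEGF10 and PRRC1 lay in a window of chromosome 5 with 14 against 0. SLC30A10, a manganese exporter gene, MAML3, a Notch coactivator gene, and GATA6, an endoderm transcription factor gene, lay in windows with 13 against 0 each. All 5 of these windows reached the minimum of loops only through their control loops. In all, 38 windows with at least 10 control loops held no sorbitol loop. A count of 0 in a pooled list says that no loop was called there, not that contacts were absent.

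Several windows were crowded in both lists. The window of HSF1, the heat shock factor gene, with 47 gene starts, held most loops in both, 27 in control and 30 with sorbitol, of which 26 were gained. The window of TLE4, a Groucho-type corepressor gene and the only protein-coding gene to start in it, held 19 control and 24 sorbitol loops. The window of ZNF703 and ERLIN2 held 21 and 23. The HOXD window on chr2:176000001-177000000 held 24 control and 5 sorbitol loops, a relative density of 0.535. The type II keratin window on chr12:52000001-53000000 held 23 and 10, with a relative density of 1.12.

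Gained anchors lay at genes more often than lost anchors. A protein-coding gene start lay in 21.8% of gained anchors (20.9 to 22.7%), 9.55% of shared anchors (8.42 to 10.8%) and 5.38% of lost anchors (5.11 to 5.67%), against 3.07% of all sequenced 5 kb bins. Anchors that overlapped a protein-coding gene made up 70.2%, 57.1% and 54.9%, against 47.0% of bins. Median GC content was 46.0% in gained, 45.4% in shared and 42.1% in lost anchors, and 39.7% in all bins. The number of GATC sites per anchor differed little, with medians of 13, 13 and 12.0 and 12.0 in all bins.

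By the kinds of anchors paired, loops from gene start to gene start made up 10.0% of gained loops (9.20 to 10.9%), 1.69% of shared loops (1.09 to 2.59%) and 0.536% of lost loops (0.428 to 0.671%). Loops with both anchors outside genes made up 13.6%, 21.7% and 24.3% in that order. The median span of start-to-start loops had overlapping intervals, at 170 kb among gained (150 to 185 kb) and 155 kb among lost loops (115 to 175 kb). Both anchors lay within the same gene in 7.14% of gained (6.44 to 7.91%) and 11.3% of lost loops (10.7 to 11.8%). Between their anchors, gained loops held 11 gene starts per Mb and lost loops 5.04.

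Among the 469 gained loops eligible to be named with gene starts in both anchors, the highest scores on separate chromosomes were CBX3 and HNRNPA2B1 to HOXA10, PRIMPOL to CFAP97 over 560 kb, and the anchor of WDR27 to that of PSMB1 and TBP over 850 kb. PRIMPOL is a repriming polymerase, PSMB1 a proteasome subunit and TBP the TATA-binding protein. Next came NDC1 to TMEM59 over 215 kb, then YWHAB to STK4 over 80.0 kb (percentile 98.6). YWHAB encodes a 14-3-3 protein and STK4 the Hippo pathway kinase MST1. The further 3 were ADHFE1 to MYBL1, TMEM43 to CCDC174 and SEC14L5 to EEF2KMT. All 8 stood at percentile 98.1 or above in the sorbitol list.

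Of the 75 eligible lost loops, the highest scores were YARS2 to ALG10 over 1265 kb (percentile 99.9), and H3C2 with H2AC4 to H3C10 with H2AC14 over 1780 kb (percentile 99.8), a contact between the separate parts of the histone cluster of chromosome 6. C4BPB to CR1, both complement regulator genes, followed over 410 kb, then CCDC188 to RTN4R. Further lost loops joined a gene known by its identifier to TPRG1, DPP7 to SLC34A3, ZFTA to NAA40 and PGAP6 to WFIKKN1, the last at percentile 79.2. The 20 eligible shared loops included TMED7 to ATG12 and AP3S1, NR6A1 to WDR38, and H3C2 to H4C3 over 70.0 kb. The histone anchor at H3C2 thus kept a 70.0 kb loop and lost its 1780 kb loop.

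Of 19970 protein-coding genes, 2290 (11.5%) started in an anchor of a gained loop and 1467 (7.35%) in an anchor of a lost loop. Gained loops only were found for 2002 genes, lost loops only for 1230, both for 175, a shared loop but not both for 467, and no loop for 16096. The lost-only count was 428 with the score-matched and 519 with the evenly thinned control. With genes of all annotated types the order turned, to 3161 genes with gained loops only and 3257 with lost loops only. Among protein-coding genes, the control list, with more loops, touched fewer gene starts (1654) than the sorbitol list (2538). Genes with only lost loops had a median length of 30.9 kb and those with only gained loops 26.1 kb, against 27.5 kb over all.

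Most gained loops at a start were 4. CBX3 and HNRNPA2B1, an RNA-binding protein gene, share a single anchor and so the same 4 loops. JOSD1 reached PLA2G6, DDX17 (an RNA helicase gene), DMC1 and MIURF over 135 to 800 kb. INPP5A, an inositol phosphatase gene, had 4 gained loops and 1 shared loop, with the starts of STK32C and LRRC27 at the far anchor of a 205 kb loop. DPYSL4 and INPP5A lie in a single region near the end of chromosome 10, and both had a loop within STK32C at the same far anchor. QSOX2, a sulfhydryl oxidase gene, reached SEC16A and LCN6. LPXN and ZFP91 share an anchor with 3 loops of 860 to 1045 kb to TIMM10, CLP1 and TMX2. TLE1, a Groucho-type corepressor gene, had 3 loops of 295 to 1270 kb to segments without genes. No control loop ended in the 5 kb bin of any of these starts; the shared loop of INPP5A has its control partner within 10 kb.

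Most lost loops were found at C11orf58, with 5 loops of 415 to 840 kb, 2 of them into SOX6, a transcription factor gene. NRP2 had 4 lost loops of 590 to 1360 kb, 3 of them into PARD3B, a cell polarity gene. EFNB1 had 3, of 265 to 560 kb, all to segments without genes. FOXC2, a forkhead factor of vessel and kidney formation, had 3, of 200 to 590 kb. SRRM1, a splicing factor gene, reached GRHL3, STPG1 and RCAN3, and CALCRL, a receptor gene for adrenomedullin, had 3 loops of 495 to 580 kb. SLITRK6 and HOXD12 each had 3 lost loops and 1 gained loop, and CSNK1A1L and ATOSB 3 lost loops and no sorbitol loop. Loops were counted in the 5 kb bin of the start, so a sorbitol loop in the next bin was not counted. For C11orf58, SLITRK6 and SRRM1 the RefSeq promoter lay outside the anchor that holds the GENCODE start, so the link to these promoters is uncertain.

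Gene lists are given by counts beside the shares over all genes, 11.5% for gained and 7.35% for lost anchors, with no test; genes of a cluster can share an anchor. In the osmotic stress and cell volume list, 4 of 36 genes (11.1%) started in gained anchors: TSC22D2, MAPK14, which encodes p38 alpha, the acid-sensing channel gene ASIC1 and the aquaporin gene AQP3. Another 2 (5.56%) started in lost anchors: NFAT5, the main transcription factor of the osmotic response, and SLC12A7, a potassium chloride cotransporter gene. Each of these 6 had a single loop, and both shares lay near those over all genes. NFAT5 lost a 165 kb loop into TERF2 and CYB5B (percentile 61.2), and MAPK14 gained a 110 kb loop into SRPK1 (percentile 47.0).

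The YAP and TEAD list counted 7 of 37 genes at gained and 7 at lost anchors, 18.9% each. CRIM1, STK4, IGFBP3 and TEAD1 led the gained side, and FJX1, AMOTL2, GADD45A and TEAD1 the lost side. TEAD1, the DNA-binding partner of YAP, and FJX1 each had 2 lost loops and 1 gained loop. AMOTL2, a YAP inhibitor gene, and GADD45A had 2 lost loops each and no sorbitol loop in the 5 kb bin of the start. In the immediate-early and stress list the counts were 6 of 36 (16.7%) gained and 1 (2.78%) lost. DDIT3, a stress-induced transcription factor gene, had 2 gained loops, and EGR3, KLF10 and HSP90AA1 had 1 each. The lost gene was GADD45A, which both lists hold.

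Of 15 genes of the CTCF and cohesin machinery, 5 (33.3%) started in gained anchors and 2 (13.3%) in lost anchors. The gained genes included CTCF itself, the cohesin subunit gene RAD21, the loader gene MAU2 and STAG1, each with 1 gained loop. STAG1 also had 1 lost loop, and the loader gene NIPBL had 1 lost and 1 shared loop. With 15 genes, each gene moves the share by several percentage points.

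Genes of protein synthesis were more often at gained than at lost anchors. Of 81 cytosolic ribosomal protein genes, 14 (17.3%) started in gained and 4 (4.94%) in lost anchors, and of 77 mitochondrial ribosomal protein genes 14 (18.2%) and 2 (2.60%). RPL41, RPL29, MRPL52, MRPL41 and MRPL17 had 2 gained loops each. Of 55 translation initiation factor genes, 14 (25.5%) started in gained and 2 (3.64%) in lost anchors. EIF4EBP1 and EIF4EBP2, which encode repressors of cap-dependent initiation, had 3 and 2 gained loops. The ZNF list had 45 of 508 genes (8.86%) at gained and 14 (2.76%) at lost anchors, both below the shares over all genes, with 3 gained loops at ZNF862.

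Developmental lists were counted in the same way. Among 29 kidney development genes, 7 (24.1%) started in lost and 3 (10.3%) in gained anchors. FOXC2 had 3 lost loops, and OSR1 and SALL1 2 each. FOXC1 had 1 lost and 1 shared control loop, and its 3 sorbitol loops were all shared. TFAP2B had 2 gained loops and 1 lost loop, and PAX2 and HOXA11 had 1 gained loop each. Among 205 developmental transcription factor genes, 32 (15.6%) were at lost and 25 (12.2%) at gained anchors, with SOX9 and POU3F1 among those with 2 lost loops, and FOXO3 with 2 gained loops. HOX genes were at gained anchors in 14 of 39 cases (35.9%) and at lost anchors in 7 (17.9%). On the gained side HOXA10, HOXA4 and HOXD8 had 2 gained loops each. On the lost side HOXD12 had 3 lost loops, and HOXB8, HOXD3 and HOXD9 2 each.

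Replication-dependent histone genes were at lost anchors in 17 of 69 cases (24.6%) and at gained anchors in 9 (13%). Olfactory receptor genes, silent in most tissues, were at lost anchors in 14 of 415 cases (3.37%) and at gained anchors in 3 (0.723%). Of 53 clustered protocadherin genes, 4 (7.55%) were at lost anchors and 1 (1.89%), PCDHGA11, at a gained anchor. Solute carrier genes gave 33 of 367 (8.99%) gained and 29 (7.90%) lost. The neuronal adhesion and synapse list, a tissue other than kidney, gave 2 of 40 (5.00%) each way.

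**Figure D5:**
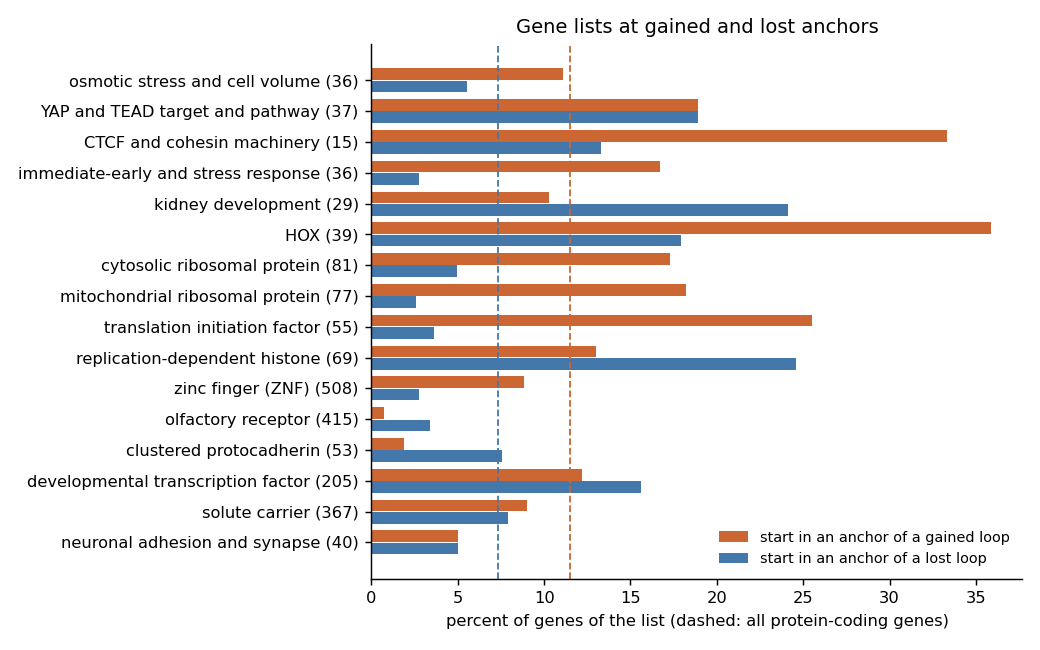
Percent of the genes of each list (number of genes in brackets) whose start lay in an anchor of a gained loop (orange) or a lost loop (blue); dashed lines are the shares over all protein-coding genes, 11.5% and 7.35%. The CTCF and cohesin, HOX and translation initiation lists lie highest for gained anchors, and the histone and kidney development lists highest for lost anchors.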

How the data were processed

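Loops came from in situ Hi-C of wild-type HEK293 cells, 3 control and 3 sorbitol libraries in the labels, deposited as 1 list per condition; how replicates were combined was not given in the sources used here. Per the file headers the lists are loop calls at 5 kb with the columns of the caller SIP. The deposited score of each loop is the authors' caller's, used only to rank loops within a list, and the deposited probability is a fraction, at least 0.900 in both lists. Genome builds are hg38 and GRCh38, per the submitters' processing notes; aligner, caller version, settings and contact depth were not given in the sources used here.

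Anchors were sorted and loops matched within 10 kb. Sites joined anchors by single linkage at 10 kb. Windows of 1 Mb took loops by midpoint. Gene starts were those of 19970 protein-coding genes of GENCODE 44; bins and promoters were read from hg38, and printed promoters from RefSeq (GRCh38.p14), where 15321 genes matched by symbol. Shares have Wilson 95% intervals and ratios of loop numbers exact 95% intervals, which cover counting error only. With 1 list per condition no test was made. Scripts used Python 3.11.15, numpy 2.4.6, pandas 2.3.3, scipy 1.17.1 and matplotlib 3.10.9, and the site, nesting and chain counts were tested on simulated loops.

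Named loops were those with the highest score percentile in their class with a gene start in both anchors, at most 1 per chromosome. Named sites, chains and windows were those with most loops, most links, and highest or lowest relative density. Named genes were the 10 with most gained and the 10 with most lost loops, and up to 4 per gene list and direction. The members and lists were chosen with earlier results of these data known. The name rule of the developmental transcription factor list was corrected after the files were seen, because it also took unrelated symbols. The alternatives tried were other matching, joining and window distances, score limits, list lengths, merged neighbours, gene types, wider anchors, and leaving out chromosomes 19 and 22. A few named items are not reported here.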

Additional observations from a re-analysis of the deposited data

How the results depend on the processing

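Of 112 values recomputed under 15 alternative settings, 67 moved beyond their counting interval or by over 1.5 times a count. Of the other 45, 8 were sorbitol-list values under settings that alter the control list alone, and 16 came from merging neighbouring loops, which changed no value, so 21 bear on stability; the cause of the moves was not tested beyond what each setting does by construction. No paired analysis was possible because each condition has 1 pooled list without replicate columns, and for the same reason no replicate could be left out. Depth is unknown. With identical bins for matching, lost and gained shares were 99.2% and 97.8%, and at 25 kb 85.5% and 62.8%. With the score-matched control both were 86.7%, and with the evenly thinned control the gained share was 92.1%.

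Mean loops per site, control and sorbitol, were 1.35 and 1.27 in the upper 50% by score, 1.14 and 1.11 with identical bins, and 1.83 and 1.61 with 25 kb joining; the score-matched control gave 1.30 and the evenly thinned 1.20. Sites with 2 or more loops were 23.4% and 19%, 12.0% and 9.70%, and 40.1% and 33.7% in that order, with 21.3% and 15.4% for the equal-length controls. Nested shares were 49.7% and 36.9%, 57.3% and 43.4%, and 67.4% and 53.0%, with 44% and 39.5%. End-to-end shares were 18.0% and 24.5%, 5.48% and 12.8%, and 46.7% and 43.1%, with 16% and 10.4%.

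Windows at 2 or more and at 0.5 or less were 35.6% and 12.9% in the upper 50% by score, 45.3% and 9.69% with the score-matched control, and 42.8% and 7.38% with the evenly thinned control. They were 37.8% and 10.4% for 500 kb windows, 15.0% and 28.2% for 2 Mb windows, and 45.4% and 1.97% with at least 20 loops. Leaving out the 2 windows at each chromosome end, an alternative chosen after seeing the data, changed neither share beyond its interval.

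Lost anchors with a gene start were 5.06% with the score-matched control, 12.5% with all gene types and 14.1% with widened anchors. Gained anchors were 19.8% with identical bins for matching, 24.0% at 25 kb, 27.1% in the upper 50% by score, 20.4% with the evenly thinned control, 29.5% with all gene types and 42.0% with widened anchors. Genes with lost loops only numbered 650 in the upper 50% by score, 428 and 519 with the score-matched and evenly thinned controls, 3257 with all gene types and 2469 with widened anchors. Genes with gained loops only numbered 1324 in the upper 50% by score and 3161 with all gene types, so with all types the lost count was the larger.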
